A study of Mus musculus with 14 samples.

Results

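The defensins are small cationic antimicrobial peptides, and the methylation of their gene promoters was described here in 6 clones of 4T1, a line of mouse mammary carcinoma cells. Members were all promoters of the deposited promoter table whose gene symbol names an alpha or a beta defensin. The rule gave 51 of 21965 promoters, 10 of alpha and 41 of beta defensins. It used gene names and no methylation value. Of the 6, E and T were intravasating, since they entered the vasculature when 23 clones were assayed as a pool, and the other 4 (I, K, L, P) were non-intravasating. Every clone had been grown from 1 sorted 4T1 cell, so that each stands for 1 cell's descendants, and no treatment was labelled. Genomic DNA was bisulfite sequenced in 2 rounds per clone, and the table holds 1 level per promoter and clone. Levels run from 0, no methylation recorded, to 1, full methylation. A level in between cannot tell a share of methylated cells or alleles from methylation of some sites only. The parental line was not analysed here.

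Defensins carry disulfide bonds and disrupt microbial membranes. In the mouse, alpha defensins, also called cryptdins, are made by Paneth cells of the small intestine, where the protease Mmp7 cuts their precursors. Beta defensins are made by epithelia of the skin, airways, kidney and gut, and many of the mouse genes are active mainly in the epididymis, where the peptides coat sperm. Some beta defensins also attract immune cells through the chemokine receptor Ccr6. In mammalian promoters rich in CpG, the dinucleotide at which DNA is methylated, methylation goes with silence, whereas in CpG-poor promoters of tissue-restricted genes the relation is looser.

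Marker promoters were read beside the labelled epithelial origin. No other cell type was measured and the CpG content of these promoters was not compared, so they cannot decide on the origin. The 12 epithelial marker promoters had a median level of 0.171, and 8 of them were under 0.2. The median over all promoters was 0.328. The E-cadherin gene Cdh1 was at 0.0856, but the keratin gene Krt5 was at 0.643. The 9 leukocyte marker promoters had a median of 0.745, none under 0.2, with the pan-leukocyte gene Ptprc at 0.79. Markers of cell types in which defensins are mainly made had a median of 0.625 over 9 Paneth cell promoters, none under 0.2, and of 0.56 over 15 epididymis promoters, 3 of them under 0.2. Over all 21965 promoters the mean level per clone lay between 0.369 and 0.412, lowest in clone L and next lowest in clone T at 0.377. No counts came with the levels, so the depth behind each value is unknown. A level of exactly 0 may be an unmethylated promoter or one with little or no usable data. Several levels of Defb4, Defa5, Defa25, Defa-ps13 and Defb18 equal fractions of small whole numbers. So do some levels of other members, such as Defb38 in clone E and Defa17 in clone L. Examples are 0.142857 for Defb4 in clone E and 0.111111 for Defa-ps13 in clone T. Clone differences at these promoters may therefore rest on few calls, which was not tested.

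Of the 51 genes, 50 were matched to RefSeq on GRCm38.p6, which placed them in 5 clusters. One cluster lay on chromosome 2, one on chromosome 14, a pair of clusters on chromosome 8 and one on chromosome 1. Defa6 was not matched. Promoter windows of 300 bases, from 250 before to 50 after the transcription start, were found in RefSeq for 27 members, all of them beta defensins. The windows of 6 members are shown because they pair high and low levels at many and at few CpG. The first 3 belong to highly methylated promoters: Defb47 at chr14:62997827-62998126, plus strand, Defb36 at chr2:152604077-152604376, plus strand, and Defb20 at chr2:152476813-152477112, plus strand. The last 3 belong to promoters with less methylation: Defb15 at chr8:21932661-21932960, minus strand, Defb13 at chr8:21946505-21946804, plus strand, and Defb6 at chr8:19225228-19225527, plus strand. Sequences run 5′ to 3′ along the gene's strand, and the capitals mark each CpG.
Defb47: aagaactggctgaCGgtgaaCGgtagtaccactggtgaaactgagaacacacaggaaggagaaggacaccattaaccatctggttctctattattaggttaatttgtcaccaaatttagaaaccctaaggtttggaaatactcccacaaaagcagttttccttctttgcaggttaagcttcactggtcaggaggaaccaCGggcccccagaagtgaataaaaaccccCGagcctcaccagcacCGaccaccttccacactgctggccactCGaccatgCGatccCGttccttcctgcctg
Defb36: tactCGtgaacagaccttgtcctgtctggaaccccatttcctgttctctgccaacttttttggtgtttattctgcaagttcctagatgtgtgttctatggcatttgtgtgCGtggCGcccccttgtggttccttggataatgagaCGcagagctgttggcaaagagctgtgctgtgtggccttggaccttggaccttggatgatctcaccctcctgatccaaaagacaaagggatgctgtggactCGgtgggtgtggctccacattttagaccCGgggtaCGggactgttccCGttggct
Defb20: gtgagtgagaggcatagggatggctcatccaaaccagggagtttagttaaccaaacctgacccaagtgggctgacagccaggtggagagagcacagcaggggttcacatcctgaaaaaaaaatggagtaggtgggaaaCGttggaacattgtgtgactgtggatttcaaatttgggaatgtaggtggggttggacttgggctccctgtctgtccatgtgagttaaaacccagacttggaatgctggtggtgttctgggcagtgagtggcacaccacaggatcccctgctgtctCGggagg
Defb15: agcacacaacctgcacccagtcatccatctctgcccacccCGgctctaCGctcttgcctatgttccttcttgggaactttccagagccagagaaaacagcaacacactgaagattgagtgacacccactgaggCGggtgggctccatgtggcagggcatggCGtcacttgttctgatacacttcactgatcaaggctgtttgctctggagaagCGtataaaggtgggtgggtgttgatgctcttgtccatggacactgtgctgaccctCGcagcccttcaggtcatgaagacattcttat
Defb13: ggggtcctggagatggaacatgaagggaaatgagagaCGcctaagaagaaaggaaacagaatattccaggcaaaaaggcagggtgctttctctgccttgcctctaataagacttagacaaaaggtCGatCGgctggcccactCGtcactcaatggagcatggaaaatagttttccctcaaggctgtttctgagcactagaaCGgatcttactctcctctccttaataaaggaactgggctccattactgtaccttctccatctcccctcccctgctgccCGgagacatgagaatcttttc
Defb6: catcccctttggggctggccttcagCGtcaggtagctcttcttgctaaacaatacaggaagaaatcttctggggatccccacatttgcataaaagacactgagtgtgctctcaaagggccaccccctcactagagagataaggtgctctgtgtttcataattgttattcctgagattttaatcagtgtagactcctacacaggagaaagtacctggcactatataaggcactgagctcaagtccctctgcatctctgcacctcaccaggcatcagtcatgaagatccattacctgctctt

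Defb47 and Defb36 had 8 CpG each in the window and mean levels of 0.821 and 0.781 over the 6 clones. Defb15 and Defb13 had 6 CpG each and levels of 0.386 and 0.335. Defb20 had 2 CpG and the highest level of all members, 0.845, while Defb6 had 1 CpG and a level of 0.0138. Where a gene had several windows, their mean number of CpG was used, as for Defb21 with 2 windows. By this number, defensin windows were poor in CpG throughout: none of the 27 members had more than 8, and the median was 1. Among all 16810 promoters with a window, 36.9% held at most 8 CpG and the median was 14. For 5 of the 27 no CpG lay in the window although a level was given, so the region that the authors averaged was not the same as these windows.

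The main pattern of the defensin promoters was a difference between gene clusters. The beta defensins of chromosomes 2 and 14 were the more methylated ones, and every one of these 16 promoters had a mean level of at least 0.448. A mean level of at least 0.5 was found in 13 of the 16, in 16 of all 51 members and in 39% of all promoters. On chromosome 8 the 32 alpha and beta defensin promoters had a median of 0.201 and 4 of them, Defb14, Defb40, Defb35 and Defa17, were above 0.4. A mean under 0.2 was found in 16 of these 32, in 17 of all 51 members and in 38.6% of all promoters. Per clone, the mean over the chromosome 2 and 14 members was 0.669 in E, 0.646 in T, 0.667 in I, 0.679 in K, 0.576 in L and 0.687 in P. The mean over the chromosome 8 members was 0.256 in E, 0.237 in T, 0.22 in I, 0.222 in K, 0.183 in L and 0.229 in P. The difference averaged 0.43 and lay between 0.393 (clone L) and 0.458 (clone P), so that it held in every clone of both groups. With beta defensins alone it was 0.435. These values describe clusters whose members share cells and neighbourhood, and no test was made over members.

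**Figure D1:**
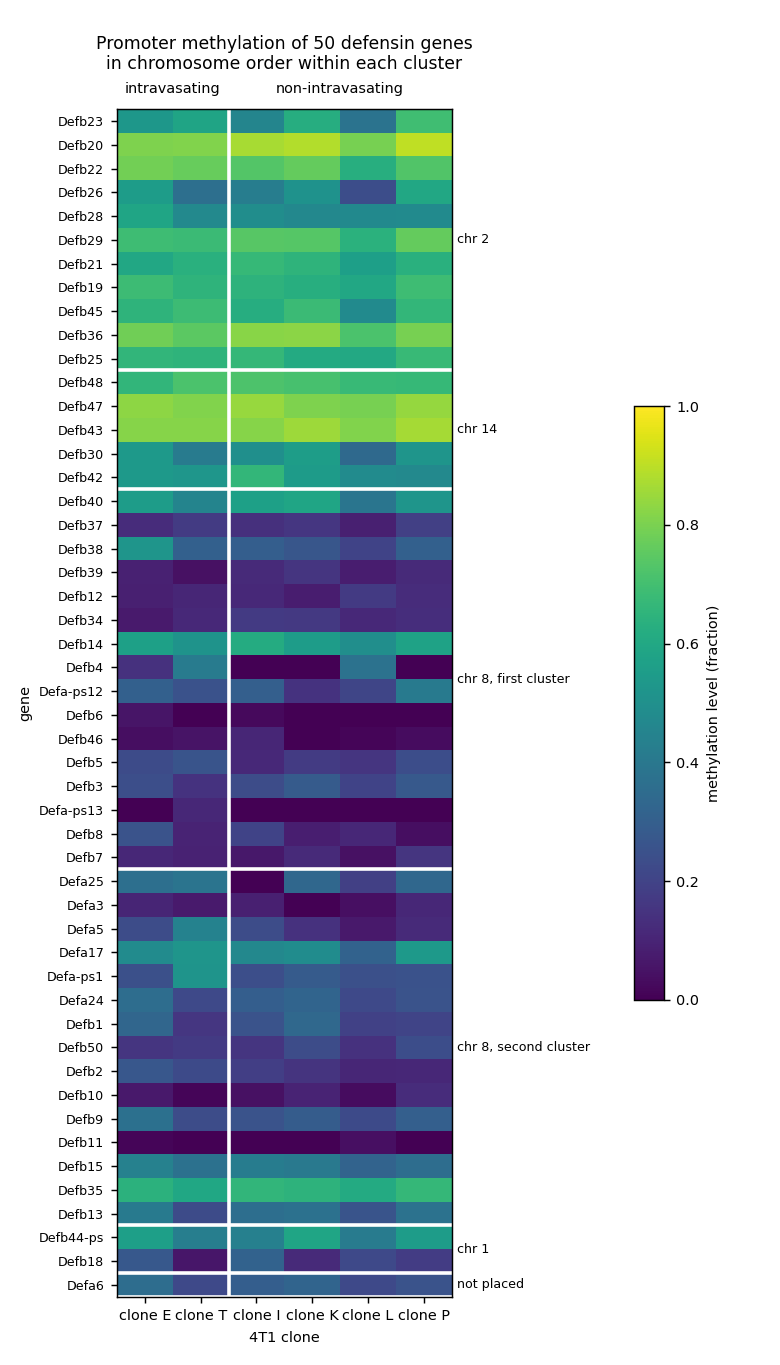
Methylation level (fraction, colour) of 50 defensin promoters (rows, in chromosome order within each gene cluster) in the 6 clones (columns, intravasating clones E and T on the left). The chromosome 2 and 14 members, with mean levels of 0.448 to 0.845, stand above most chromosome 8 members, whose median was 0.201.

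Other promoters near these clusters did not all share the level of the defensins. Around the chromosome 2 cluster, 46 promoters of other genes within 1 Mb had a median of 0.274, against 0.644 for the 11 defensins. Around the chromosome 14 cluster, 20 such promoters had a median of 0.665, close to the 0.691 of the 5 defensins. These 20 ran from 0.00587 to 0.926, however, and 6 of them were under 0.2. Their mean was 0.528, against 0.672 for the 5 defensins. Near the first chromosome 8 cluster the 9 other promoters had a median of 0.261 and the 16 defensins 0.139. Near the second, the 31 other promoters had a median of 0.249 and a mean of 0.325, and the 16 defensins 0.261 and 0.26. Of the 31, 7 lie inside that cluster under Gm symbols, with a median of 0.223. Members were chosen by name, and whether any of these 7 is a defensin was not checked. All promoters of chromosomes 2, 14 and 8 had medians of 0.323, 0.376 and 0.259. Inside the first chromosome 8 cluster lie Spag11a and Spag11b, sperm-associated genes related to beta defensins, and their promoters were at 0.589 ± 0.0485 and 0.169 ± 0.0309 (SD, n = 6 clones each). Angpt2, a vascular growth factor gene beside that cluster, was at 0.915 ± 0.0227, and the cathepsin gene Ctsb, beside the chromosome 14 cluster, at 0.153 ± 0.0399 (SD, n = 6 clones each).

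Across the 27 promoters with a window, the level was higher where more CpG were present, with Pearson r = 0.562 and Spearman rho = 0.548. Within the 13 windows of chromosome 8 these were 0.684 and 0.564, and within the 14 of chromosomes 2 and 14 they were 0.456 and 0.372. Over all 16810 promoters with a window, r was -0.371 and rho -0.40. In the CpG range of the defensins, however, the medians of all promoters were also higher with more CpG. They were 0.369 with 0, 0.458 with 1 or 2, 0.613 with 3 to 5 and 0.636 with 6 to 8 CpG. Promoters whose mean number over several windows fell between these ranges were not counted in them. The median was 0.158 with 9 or more, where no defensin window lay. These are descriptions across promoters of the same 6 clones and carry no test. At 1 or 2 CpG, the 5 chromosome 2 and 14 members had a median of 0.544, the 7 chromosome 8 members one of 0.101, and there were 1932 such promoters in all. At 6 to 8 CpG, the medians were 0.781 over 3 and 0.36 over 2 members. No chromosome 8 window held 3 to 5 CpG and 24 members had no window, so the part of CpG number in the difference between clusters was not tested.

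**Figure D2:**
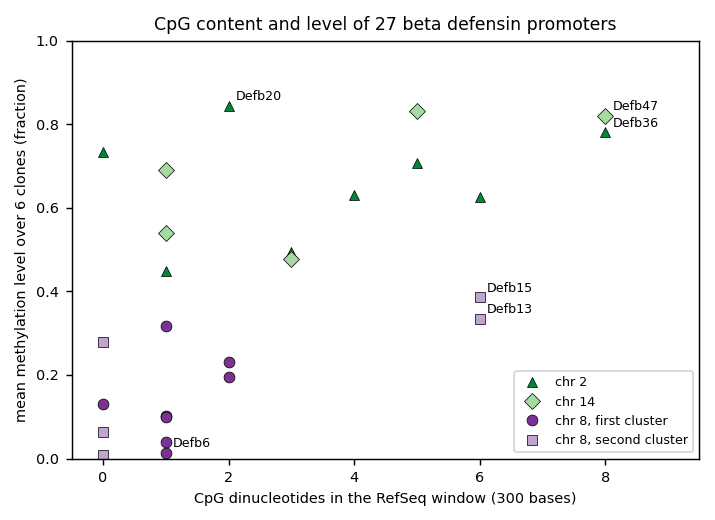
Mean methylation level over the 6 clones (fraction, vertical axis) against the number of CpG in the 300-base RefSeq window (horizontal axis) for 27 beta defensin promoters, with a symbol for each gene cluster. At 6 CpG the chromosome 2 member Defb21 (the mean of 2 windows) is at 0.625, and the chromosome 8 members Defb15 and Defb13 are at 0.386 and 0.335.

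Among the members of chromosomes 2 and 14, Defb20, Defb43, Defb47, Defb36 and Defb22 were the most methylated beta defensins, with means of 0.845, 0.831, 0.821, 0.781 and 0.734. Defb22, which encodes a coat protein of mouse sperm, was at 0.785 in E and 0.767 in T, against 0.731, 0.764, 0.628 and 0.729 in I, K, L and P. Both intravasating clones were above the other 4, by a gap of 0.00222. Of these 16 promoters Defb47 varied least, with a range of 0.0521 over the 6 clones. Defb26 and Defb23, both on chromosome 2, varied most. Defb26 was at 0.552 in E and 0.366 in T, against 0.425 in I, 0.511 in K, 0.237 in L and 0.599 in P. Defb23 was at 0.528 and 0.585 in E and T, against 0.453, 0.624, 0.379 and 0.695 in I, K, L and P. In both, clone L was lowest and clone P highest, and the groups overlapped.

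Clone L was alone lowest in 10 of the 11 chromosome 2 members. The exception was Defb28, at 0.475 in L and 0.469 in K. Over all promoters clone L was alone lowest in 35.9%, over those of chromosome 2 in 36.6%, and over the 9014 promoters with mean levels between 0.4 and 0.9 in 50.5%. Within 1 Mb of the cluster it was alone lowest in 15 of 46 other promoters. The mean of the chromosome 2 members was 0.666 in E and 0.641 in T, against 0.648 in I, 0.671 in K, 0.556 in L and 0.693 in P. Among all 51 members clone L was alone lowest in 26, and clone P was alone highest in 15 (29.4%), against 19.8% of all promoters. The count of 10 was noticed in the data, the members are neighbours, and no test was made.

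**Figure D3:**
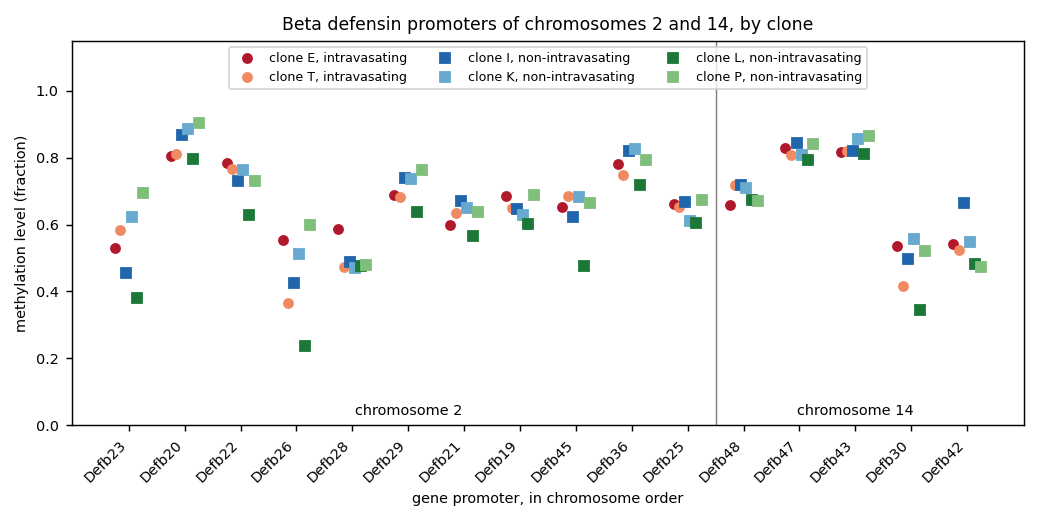
Methylation level (fraction) of the 16 beta defensin promoters of chromosomes 2 and 14 (horizontal axis, in chromosome order) in each clone, circles for the intravasating clones E and T and squares for the non-intravasating clones. Clone L is lowest in 10 of the 11 chromosome 2 promoters, and Defb28 is the exception.

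The chromosome 8 members included the best studied beta defensins. Defb1, made constitutively by kidney and other epithelia, was at 0.246 ± 0.0744, and Defb3, which is induced by infection in mouse airways, at 0.231 ± 0.0512 (SD, n = 6 clones each). Defb14, the counterpart of human beta-defensin 3, was at 0.553 ± 0.043 (SD, n = 6). The least methylated members of the beta family were Defb11 at 0.0092, Defb6 at 0.0138, Defb46 at 0.0405, Defb10 at 0.064 and Defb7 at 0.0984, all on chromosome 8. Defb11 was listed at 0 in clones T, I, K and P, and Defb6 in T, K, L and P. In all, 7 members (13.7%) were at exactly 0 in at least 1 clone, against 1.37% of all promoters.

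Defb4, another inducible beta defensin, had the widest range of all members. The range over clones was at least 0.2 in 13 members, against 10.6% of all promoters, and at least 0.1 in 39 members, against 43.8%. The median range was 0.125 over the members and 0.0894 over all promoters. It was 0.126 over promoters with mean levels from 0.4 to 0.9 and 0.0641 over those under 0.4. Over the 7 Gm promoters inside the second chromosome 8 cluster it was 0.24. The number of calls behind these ranges is unknown. The Defb4 promoter was at 0.143 in E and 0.417 in T, against 0 in I, 0 in K, 0.375 in L and 0 in P. High levels were thus found in 1 clone of each group, and the groups overlapped. Defb38, an epididymal gene, was at 0.52 in E and 0.308 in T, against 0.299, 0.267, 0.202 and 0.306 in I, K, L and P. Clone E alone stood apart there. Defb18, on chromosome 1, was at 0.274 in E and 0.0588 in T, against 0.312, 0.12, 0.222 and 0.176 in I, K, L and P. In 7 members (13.7%) some clone differed by 0.2 or more from the other 5 clones' median, against 3.88% of all promoters. These were Defa5, Defa25, Defa-ps1, Defb4, Defb23, Defb26 and Defb38.

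**Figure D4:**
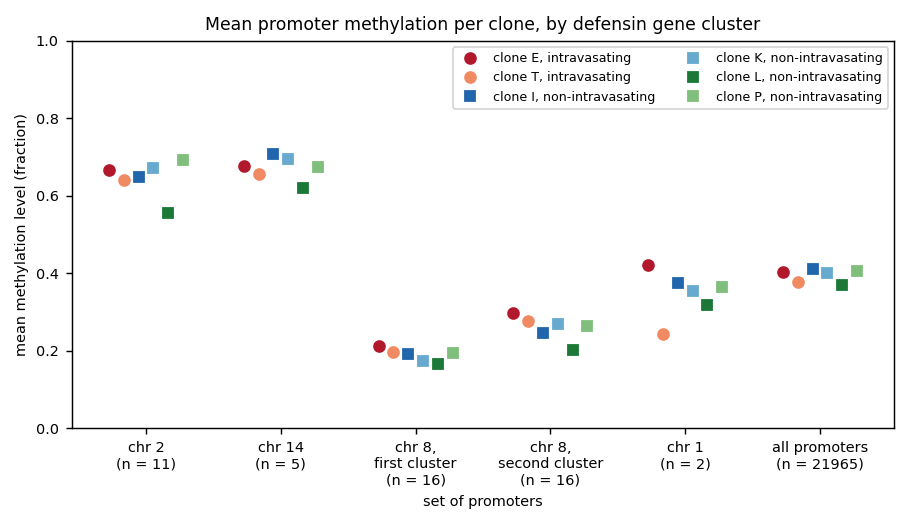
Mean promoter methylation (fraction, vertical axis) per clone for each defensin gene cluster and for all promoters (horizontal axis, with the number of promoters), circles for the intravasating and squares for the non-intravasating clones. The chromosome 2 members average 0.556 in clone L and 0.641 to 0.693 in the other clones, and clone spread within a cluster is smaller than the distance between the chromosome 2 and 14 clusters and the chromosome 8 clusters.

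The study's contrast between the 2 intravasating and the 4 non-intravasating clones was then read for the defensins. limma, fitted over all promoters with Benjamini-Hochberg adjustment, called 0 of the 51, and the smallest adjusted p was 0.99998. It called 0.00911% of all promoters. The unadjusted limma p was under 0.05 for 6 members (11.8%), 4 higher and 2 lower, and for 3.93% of all promoters, 1.68% higher and 2.26% lower. The count of 6 fell to 2 on the logit scale and to 2 without the mean trend, and was 4 after centring. It lay between 3 (without clone K) and 7 (without clone L) with a non-intravasating clone left out. Over all 21965 promoters the count was 864 in the main fit, 932 on the logit scale, 943 without the mean trend and 836 after centring. It was 720 without clone K and 1691 without clone L. The mean over all members in intravasating clones was 0.38 ± 0.0202 (SD, n = 2), against 0.358 ± 0.0305 (SD, n = 4) in non-intravasating ones, a difference of 0.0217. Over all promoters the same difference was -0.00646. The members' difference was 0.00659 without clone L, 0.00738 without clone E and 0.036 without clone T.

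The 6 members with a small unadjusted p were Defb2, Defa5, Defb34, Defa-ps13, Defb39 and Defb38. Defb2, inducible in mouse airway epithelium, was at 0.27 in E and 0.225 in T, against 0.184, 0.149, 0.106 and 0.11 in I, K, L and P. Both intravasating clones were higher than all 4 others, with a difference of 0.11 ± 0.0298 (SE) and an unadjusted limma p of 0.0051 (adjusted p = 0.99998). Defa5, a cryptdin gene, was at 0.231 in E and 0.444 in T, against 0.231, 0.143, 0.0667 and 0.118 in I, K, L and P, a difference of 0.198 ± 0.0619 (SE) with an unadjusted limma p of 0.0112. The lead of Defa5 was set by clone T, since clones E and I had the same level. Defb34 was at 0.0714 in E and 0.115 in T, and between 0.117 and 0.171 in the non-intravasating clones. Defb39 was at 0.0915 in E and 0.0439 in T, and between 0.0812 and 0.154 in the non-intravasating clones, where the groups overlapped. Defa-ps13, a pseudogene, was at 0.111 in T and listed at 0 in the other 5 clones.

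The groups did not overlap at 5 members (9.80%), 4 higher and 1 lower in the intravasating clones, against 11.2% of all promoters, 4.31% higher and 6.89% lower. The 5 were Defb2, Defa25, Defb22, Defb38 and Defb34, and no gap between the nearest clones reached 0.05, as it did in 0.687% of all promoters. After centring each clone on its median over all promoters the count was 8, against 9.74% of all promoters. Without single clones it was 20 (without E), 14 (T), 8 (I), 6 (K), 13 (L) and 7 (P), while the share over all promoters was 37.1%, 34.0%, 17.4%, 15.9%, 25.0% and 15.9%. Defa-ps13 was called without clone E (limma adjusted p = 0.00483), a fit in which clone T alone stood for the intravasating group and was assumed to vary like the others.

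All 10 alpha defensins had a higher mean in the intravasating clones, which was true of 28 of all 51 members and of 42.4% of all promoters. None passed the test. The mean over the 10 was 0.275 in E and 0.302 in T, against 0.223 in I, 0.226 in K, 0.172 in L and 0.25 in P, so both intravasating clones were above the other 4 by the mean. The median over the 10 was 0.302 in E and 0.262 in T, against 0.27 in I, 0.253 in K, 0.213 in L and 0.254 in P, so by the median clone T was below clone I. The 41 beta defensins averaged 0.423 in E and 0.381 in T, against 0.403, 0.408, 0.347 and 0.41 in I, K, L and P, and 18 of them had a higher mean in the intravasating clones. The alpha count depended on single clones, at 7 without E, 8 without T, 9 without K and 7 without L. Defa24 and Defa6 had the same 6 levels and cannot be told apart, so the 10 are 9 separate measurements. Inside the second chromosome 8 cluster lie 7 further promoters with Gm symbols, which the name rule did not take in. Of these, 3 had a higher and 4 a lower mean in the intravasating clones, with an average difference of 0.00524. Whether any of them belongs to an alpha defensin was not checked.

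**Figure D5:**
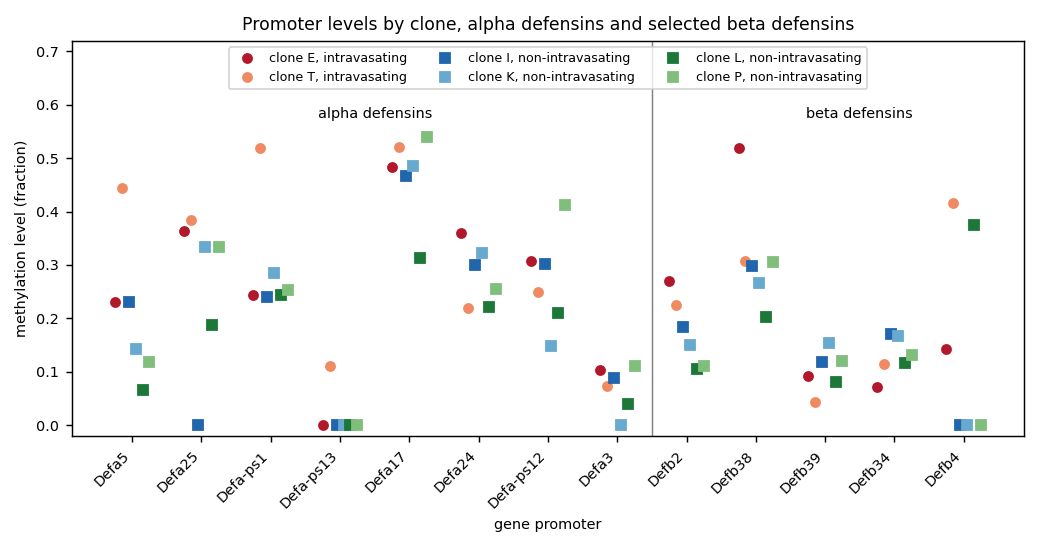
Methylation level (fraction) of 8 alpha defensin promoters (left; Defa6 equals Defa24 and is not drawn) and 5 beta defensin promoters (right) in each clone, circles for the intravasating clones E and T and squares for the non-intravasating clones. Clone T is far above the other clones in Defa5 (0.444) and Defa-ps1 (0.519), and clone E in Defb38 (0.52).

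Within the alpha family the levels differed by gene and by clone. Defa17 was the highest, at 0.483 in E and 0.522 in T, against 0.467, 0.485, 0.312 and 0.54 in I, K, L and P. The pseudogene Defa-ps1 was at 0.245 in E and 0.519 in T, against 0.241 to 0.286 in the other 4, so clone T alone stood apart. Defa25 was at 0.364 in E and 0.385 in T, against 0 in I, 0.333 in K, 0.188 in L and 0.333 in P, a gap of 0.0303 between the groups. Defa24 was at 0.359 in E and 0.22 in T, against 0.301, 0.323, 0.222 and 0.256 in I, K, L and P. The pseudogene Defa-ps12 was at 0.279 ± 0.0408 in intravasating clones (SD, n = 2), against 0.268 ± 0.115 in non-intravasating ones (SD, n = 4). Defa3 was low, at 0.0876 ± 0.0211 in intravasating clones (SD, n = 2), against 0.0596 ± 0.0498 in non-intravasating ones (SD, n = 4). Alpha defensin genes are close copies of each other, and the treatment of reads that fit several copies was not stated in the labels, so their levels may be mixed.

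Genes that act with the defensins were listed as well, and none was called. Of 41 promoters of other antimicrobial genes, 1 was higher and 4 were lower without overlap, against 4.31% and 6.89% of all promoters. Their median level was 0.598, and 4 of the 41 were under 0.2. Camp, the cathelicidin gene, was at 0.785 ± 0.0296, the lysozyme genes Lyz1 and Lyz2 at 0.625 ± 0.0543 and 0.343 ± 0.0654, and the protease inhibitor gene Slpi at 0.623 ± 0.048 (SD, n = 6 clones each). Hamp2, a hepcidin gene, averaged 0.0963 in intravasating clones, against 0.194 in non-intravasating ones, with an unadjusted p of 0.0105 in the limma model fitted across all promoters (adjusted p = 0.99998). Ang, at 1 of its 2 promoters, averaged 0.192 in intravasating clones, against 0.286 in the non-intravasating ones. Pglyrp1, a peptidoglycan recognition protein gene, averaged 0.687 in intravasating clones, against 0.776 in non-intravasating ones. Of 40 promoters of processing, receptor and induction genes 3 were higher and 2 lower without overlap. Their median was 0.461, and 11 of the 40 were under 0.2. Mmp7 was at 0.728 ± 0.0614, the chemokine gene Ccl20 at 0.659 ± 0.0605, and the 4 Ccr6 promoters between 0.284 and 0.626 (SD, n = 6 clones each). Tlr3, a sensor of double-stranded RNA, averaged 0.0182 in intravasating clones, against 0.0335 in non-intravasating ones. Of 50 promoters of genes listed as cluster neighbours 1 was higher and 2 were lower without overlap, and the median was 0.421. This list reached further than the 1 Mb used above. Mcm3, a replication gene on the list but outside that distance, averaged 0.0828 in intravasating clones, against 0.132 in non-intravasating ones. Among the marker genes, Cdh1, Cldn4, Bsph1, Cst8 and Cd68 had an unadjusted limma p under 0.05 and none was called.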

How the data were processed

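Genomic DNA of 4T1 clones was sonicated, ligated to methylated adapters, bisulfite converted and sequenced as paired ends, per the labels' protocols. The deposited promoter table holds methylation levels as a fraction from 0 to 1, with 1 value per gene promoter and clone. Per the submitters' processing notes, mm10, DESeq and bedtools were named without a role. Not given in the sources used here were the aligner, promoter boundaries, coverage minimum and how the 2 rounds per clone were combined. No depth came with the levels, so no counting interval is given. A table of hypomethylated regions was not used, since its coordinates run past chromosome ends of mm10.

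Of 22110 rows, 145 repeats of the same gene and levels were dropped. Levels were compared between 2 intravasating and 4 non-intravasating clones by limma 3.58.1 (R 4.3.3; mean trend in eBayes, Benjamini-Hochberg adjustment over 21965 promoters, called at an adjusted p under 0.05). The labels do not say that clones were cultured in replicate, so p-values measure the spread between clones. A count model kept in reserve was not used, as the table holds levels only. The fit was tested on simulated levels. Gene names, chromosomes, neighbours and promoter windows came from RefSeq on GRCm38.p6. The build behind the deposited promoter levels is not certain, so they may rest on another build than these windows. Gene clusters were runs of members less than 1 Mb apart. Python 3.11.15, pandas 2.3.3, NumPy 2.4.6, SciPy 1.17.1 and matplotlib 3.10.9 were used for the rest.

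Members were named where the unadjusted p was under 0.05, where groups were apart by at least 0.05, where a member was among the 5 highest or 5 lowest of its family or the 10 widest ranges, where its levels equalled those of another gene, where a clone lay 0.5 or more from the other clones' median, or where it was a well-known gene; other-list genes by the first 2 rules or as fixed. Members not named by the rule (Defb13, Defb15, Defb21, Defb28, Defb35 and Defb40) were named after their values were seen. The values of 1 further member are not reported here, though sums and counts include it. The members, lists and rules were chosen with earlier results of these data known. Alternatives were a logit scale (with levels kept between 0.01 and 0.99), arcsine square roots, eBayes without the trend, centring, promoters with a range of at least 0.1, no promoters at 0, repeated rows kept, equal members counted once, an adjusted p under 0.10, and each clone left out.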

Additional observations from a re-analysis of the deposited data

Results flagged for a closer look

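Clone L stood apart from clones I, K and P in the mean over all 51 defensin promoters, at 0.313 against 0.368 to 0.379. Clone L was also the lowest over all 21965 promoters, at 0.369 against 0.412 in I, 0.402 in K and 0.406 in P. A low mean in clone L was thus not particular to the defensins. At single promoters, 1 non-intravasating clone stood apart from the other 3 in 3 named members. Defb4 was at 0.375 in clone L and listed at 0 in the other 3. Defb11 was at 0.0417 in clone L and listed at 0 in the others. Defb6 was at 0.0256 in clone I and listed at 0 in the others. In all, 31 groups of 4 clones were examined. The mark is set so that chance gives about 1 in 20, but that rate does not hold here. Many members were named for their range, level or p in these same values. Where 3 of the 4 clones are at exactly 0, any value above 0 is marked.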

How the results depend on the processing

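The count of called defensin promoters was 0 under every alternative with all 6 clones, and 0 to 1 with a clone left out (Defa-ps13 without clone E, difference 0.111). The count without overlap was 8 after centring and 6 to 20 with a clone left out. The share over all promoters was 9.74% after centring and 15.9% to 37.1% with a clone left out. The mean difference of the members kept its sign (0.00659 to 0.036 with a clone left out, 0.0148 to 0.0298 otherwise), and the alpha count was 7 to 10. The chromosome 2 and 14 minus chromosome 8 difference was 0.39 without members at 0 in any clone, where 7 members are left out. These last 2 results were added after the levels were seen. Among single genes, none of them called, the sign of the difference turned after centring for Defb1 (0.00426), Defb11 (0.00379), Defb47 (0.00413), Ctsb (0.00528) and 1 Ccr6 promoter (0.000955), and on the arcsine scale for Defb11 (0.00686). The cause was not tested. With a clone left out, these differences took both signs: Defb1 -0.0875 to 0.0811, Defb11 -0.0104 to 0.00676, Defb14 -0.0461 to 0.00999, Defb18 -0.149 to 0.0664, Defb23 -0.0342 to 0.0712, Defb26 -0.0768 to 0.109, Defb46 -0.00575 to 0.0301, Defb47 -0.0132 to 0.0066, Defb6 -0.00641 to 0.0507, Defb7 -0.0087 to 0.0288, Defa-ps1 -0.0108 to 0.264, Defa-ps12 -0.0292 to 0.0587, Defa24 and Defa6 -0.055 to 0.0839, Camp -0.00866 to 0.0217, Ccl20 -0.075 to 0.0487, 3 Ccr6 promoters -0.0618 to 0.0558, -0.0555 to 0.00776 and -0.0187 to 0.025, Ctsb -0.0521 to 0.0478, Mmp7 -0.0662 to 0.0786, Spag11a -0.0559 to 0.0179 and Spag11b -0.00503 to 0.0232. Coverage minimums could not be applied, since no coverage was given. No paired analysis was possible because the columns carry no round number and clones of the groups are not paired.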
